A study of Salmo salar with 79 samples.

Results

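Skin of Atlantic salmon was measured before wounding and at 7 times after a punch wound, and the genes described here are 40 array probes named for immunoglobulins (Ig), antigen presentation, T cell receptors and other B cell or T cell functions. They were taken from the supplementary list of 771 probes that accompanies these arrays, by category (an immune entry mentioning B cells, T cells or antigen) or by name (immunoglobulin, Ig heavy, Ig kappa or Ig mu). The list had been chosen by its log2 difference between high fish density (HFD) and control on these same arrays, selected on a size beyond 0.8 and an unadjusted p under 0.05, so the 40 probes out of 14841 on the array are not a full set of lymphocyte genes. By role there were 5 Ig heavy chain probes, 12 Ig light chain probes, 3 Fc receptor probes, 4 probes of MHC class I with its light chain, 4 of MHC class II, 3 of T cell receptor chains, 5 of other leukocyte genes and 4 whose names point to other functions. All names were given by sequence similarity, and probes of one Ig family may share targets; cross-hybridisation was not tested, since probe sequences were not used here.

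Salmon (Salmo salar) stocked at 100 kg/m3 (HFD) or 20 kg/m3 (control) and kept in seawater were wounded with a biopsy punch. A piece of the wound with the skin around it was homogenised whole. The authors left the biomass unadjusted, so over the study the density rose in HFD and fell in control. Intact skin (0 days post wounding, dpw) came from 4 fish per density and wounds came from 5 fish per density at 4 early days (1, 3, 7 and 14 dpw) and on 36, 43 or 57 dpw. Each density was held in 1 tank, so density and tank cannot be told apart. HFD and control fish also lay mostly on different slides. In intact skin no slide held both densities, so there density and slide cannot be told apart. At each of 1, 3, 7 and 14 dpw 1 slide held both, with 2 of the 10 fish. At 36 and 43 dpw 2 slides did, with 6 fish, and at 57 dpw 3 did, with 8 fish. The arrays of 0 to 14 dpw and those of 36 to 57 dpw were scanned in separate campaigns, so for a late wound against intact skin the day and the campaign cannot be told apart.

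Antibodies are built of paired heavy and light chains, and the membrane form of Ig mu is the antigen receptor on the surface of IgM-bearing B cells. In teleost skin B cells and T cells are resident beside mucus-producing and epidermal cells, and the secreted Ig of mucus is part of the barrier. T cells read peptides presented by MHC class I, which most cells carry, and by MHC class II, which dendritic cells, macrophages and B cells carry, while Fc receptors let phagocytes take up antibody-coated particles.

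Levels are log2 intensities relative to the 75th percentile of their array, so that 0 is the level of a fairly bright probe, and they can be compared between fish for one probe but not between probes. The share of probes well above background ran from 60.1% to 94.5% over the arrays, and from 60.1% to 78.4% over the 8 arrays of the dimmest slide. Of the 40 members 33 were well above background in every fish, and for the other 7 the number of fish is given where it bears on a value. Whole tissue was measured, so fewer cells of a type and less RNA per cell cannot be told apart. Markers of other cells moved with the days. The summed linear level of 4 phagocyte markers (myeloperoxidase and 3 probes of neutrophil cytosolic factors) had a median of 1.09 before wounding, 25.8 at 3 dpw and 1.71 at 57 dpw, and all 4 markers rose at each day to 14 dpw. Muscle markers summed to a median of 39.9 before wounding, 19.5 at 3 dpw and 85.3 at 36 dpw. At the same times epidermal markers summed to 42.6, 144 and 31.9, and erythrocyte markers to 2.70, 12.8 and 5.78, and 26.2 at 1 dpw. These sums weigh the brightest markers most, and the markers of a set did not all move alike. Of 10 muscle markers 1 rose and 6 fell at 3 dpw, and 4 rose and 3 fell at 36 dpw. Of 6 epidermal markers 4 rose and 2 fell at 3 dpw, and 1 rose and 2 fell at 36 dpw. Of 4 erythrocyte markers 3 rose at 3 dpw and 1 rose at 36 dpw. The part of these shifts in the changes below was not tested.

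Each wound day was compared with intact skin over both densities together, which weighs HFD and control equally and so does not use the difference that chose the list. A probe was called with an adjusted p under 0.05 in limma (Benjamini-Hochberg over all tested probes) and a log2 change beyond 0.8. The 7 comparisons share the same 8 intact fish. In the first days some of the 40 genes rose and some fell, and from 36 dpw most of them were above intact skin. The numbers that fell at 1, 3 and 7 dpw were near or under the share of all probes, so nothing is read from them. At 1 dpw 10 of the 39 tested rose, where 11.7% of all tested probes rose, and 8 fell, where 17.6% fell. At 3 dpw 12 rose against 14.4% of all probes and 7 fell against 23.8%, and at 7 dpw 12 of 40 rose against 11.2% and 6 fell against 20.3%. At 14 dpw, where 29.9% of all probes were called, 16 of 40 rose (10.6% of all probes) and 1 fell (19.2%). At 36 dpw, where 35.1% were called, 25 of 40 rose against 9.03% and 4 fell against 26%. At 43 dpw 23 of 39 rose against 6.9% and 3 fell against 23.8%, and at 57 dpw 26 of 39 rose against 6.71% and 3 fell against 23.8%. The T cell receptor gamma probe is among the falls at 36, 43 and 57 dpw. It was close to background there and passed the filter through the intact fish. CD276 is among the rises at 1, 3, 7 and 14 dpw and passed only with the wounded fish counted. Over the 7 wound days in order, the median change of the members tested was −0.12, 0.28, 0.44, 0.81, 1.28, 1.31 and 1.45, where the median over all tested probes lay between −0.25 and −0.15. In the values the authors scaled themselves the median of all probes was 0.26 (3 dpw), 0.46 (7 dpw) and 0.91 (36 dpw). With those values 15 members rose and 1 fell at 3 dpw, 22 rose and 1 fell at 7 dpw, and at 36, 43 and 57 dpw 31 rose and 0 fell. The shares of all probes called with those values were not recorded, and their median at 36 dpw was itself beyond 0.8. These counts are therefore no result about the members. With quantile normalization the splits were 12 and 4 at 3 dpw and 13 and 3 at 7 dpw. With normexp background correction they were 9 and 3, and 8 and 2. Each of these scalings put the median of all probes higher than reported here. Whether the falls depend on the scaling more than the rises was therefore not tested.

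**Figure D1:**
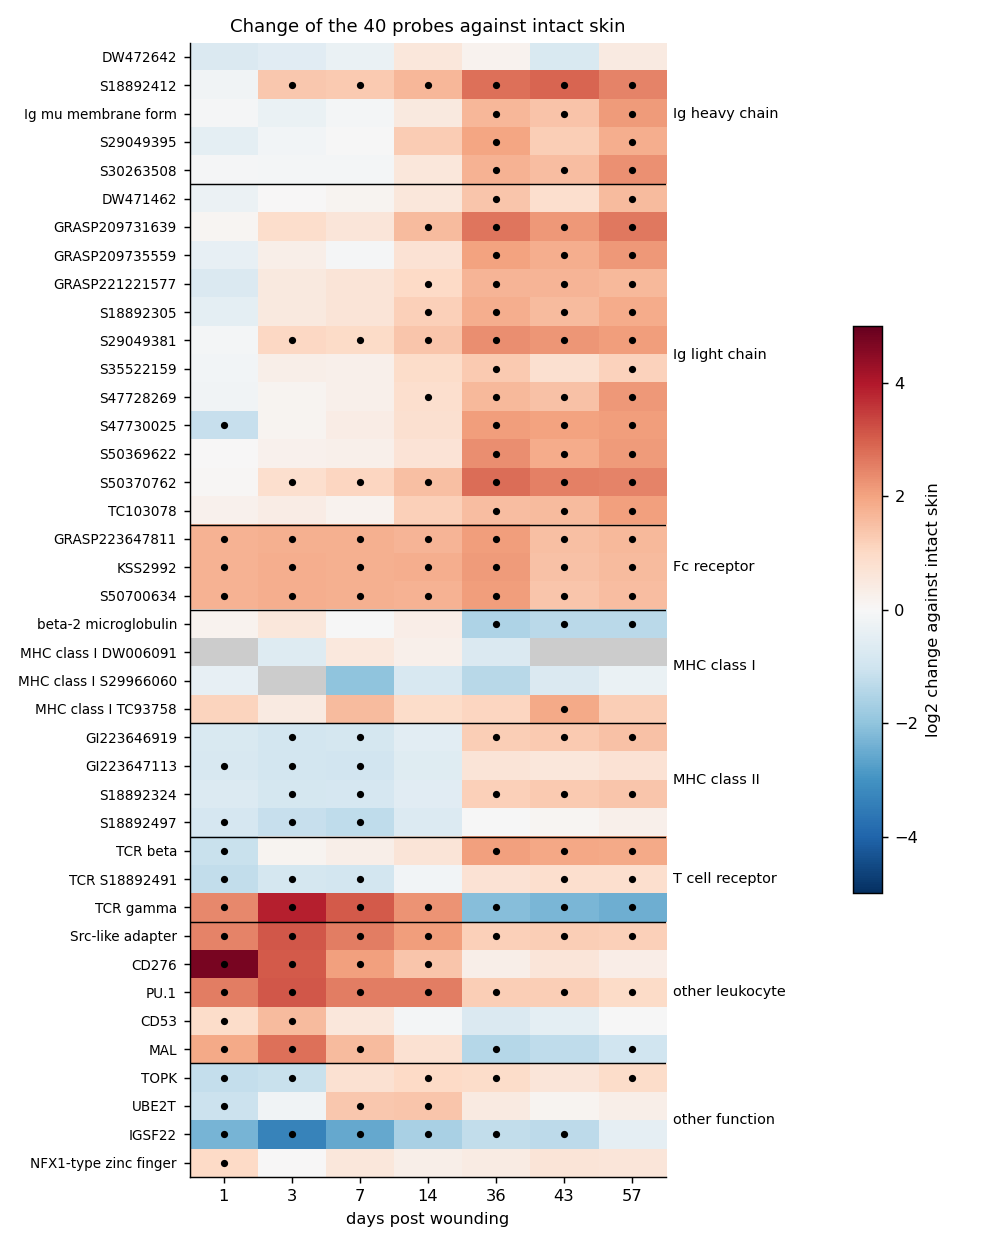
Log2 change of the 40 probes against intact skin at each wound day, with HFD and control fish weighted equally. Colour gives the change, a dot marks a probe called by limma, grey marks a probe not tested at that day; the Ig light chains are called in full at 36 and 57 dpw and the Fc receptors at every day.

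The Ig heavy chain probes were near their intact level in the early wound and above it late. None of the 5 was called at 1 dpw, 1 was called at 3, 7 and 14 dpw, and 4, 3 and 4 rose at 36, 43 and 57 dpw. The medians at these last days were 1.74, 1.43 and 2.13. The membrane-bound form of the Ig mu constant region (Ssa#S18892482) had levels of 1.42 to 3.89 in intact skin with a median of 2.07. Its levels ran from 0.72 to 4.71 with a median of 2.61 at 14 dpw, from 3.33 to 4.91 with a median of 3.78 at 36 dpw and from 3.58 to 5.34 with a median of 4.33 at 57 dpw. The fish of the early wounds thus spread over a wide range that covered the intact fish, and at 57 dpw the lowest fish was still under the highest intact fish. Over the early days in order the change was −0.05, −0.35, −0.10 and 0.49, none of them called. It was 1.65 ± 0.30 (SE) at 36 dpw (limma adjusted p = 0.00023), 1.43 ± 0.34 at 43 dpw (adjusted p = 0.0023) and 2.13 ± 0.30 at 57 dpw (adjusted p = 2.2e-05). In 2 fish, of HFD at 3 dpw and at 14 dpw, the spot was marked as an outlier and left out.

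The heavy chain probe Ssa#S18892412, the antibody subunit that carries the effector part, moved earlier than Ig mu. Its levels were −4.09 to −3.20 in intact skin with a median of −3.82, −4.87 to −3.38 at 1 dpw with a median of −3.85, and −3.12 to −1.60 at 3 dpw with a median of −2.59. At 43 dpw they reached −1.99 to 0.63 with a median of −0.92. From 3 dpw on, other than at 7 dpw, every wounded fish was above every intact fish. It rose by 1.36 ± 0.21 at 3 dpw (limma adjusted p = 2.9e-05), 1.67 ± 0.22 at 14 dpw (adjusted p = 9e-06) and 2.92 ± 0.31 at 43 dpw (adjusted p = 1.4e-06), the largest rise of the 40 at that day. Between 1 and 3 dpw it rose by 1.55 ± 0.20 (adjusted p = 1.1e-05), the largest rise of a member in that interval; with normexp background correction this was 0.77 and no longer beyond 0.8. The probe Ssa#S30263508 followed Ig mu, with changes of 1.74 ± 0.30 at 36 dpw (adjusted p = 0.00012) and 2.27 ± 0.31 at 57 dpw (adjusted p = 1.8e-05), and Ssa#S29049395 rose by 1.98 ± 0.55 at 36 dpw (adjusted p = 0.0057). The call of Ssa#S29049395 was lost in control fish alone and with fish number as a block. Against intact skin that block leaves only control fish 5 of the intact controls in use. The remaining probe, Ssa#DW472642, was not called at any day, with changes between −0.75 at 43 dpw and 0.56 at 14 dpw.

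**Figure D2:**
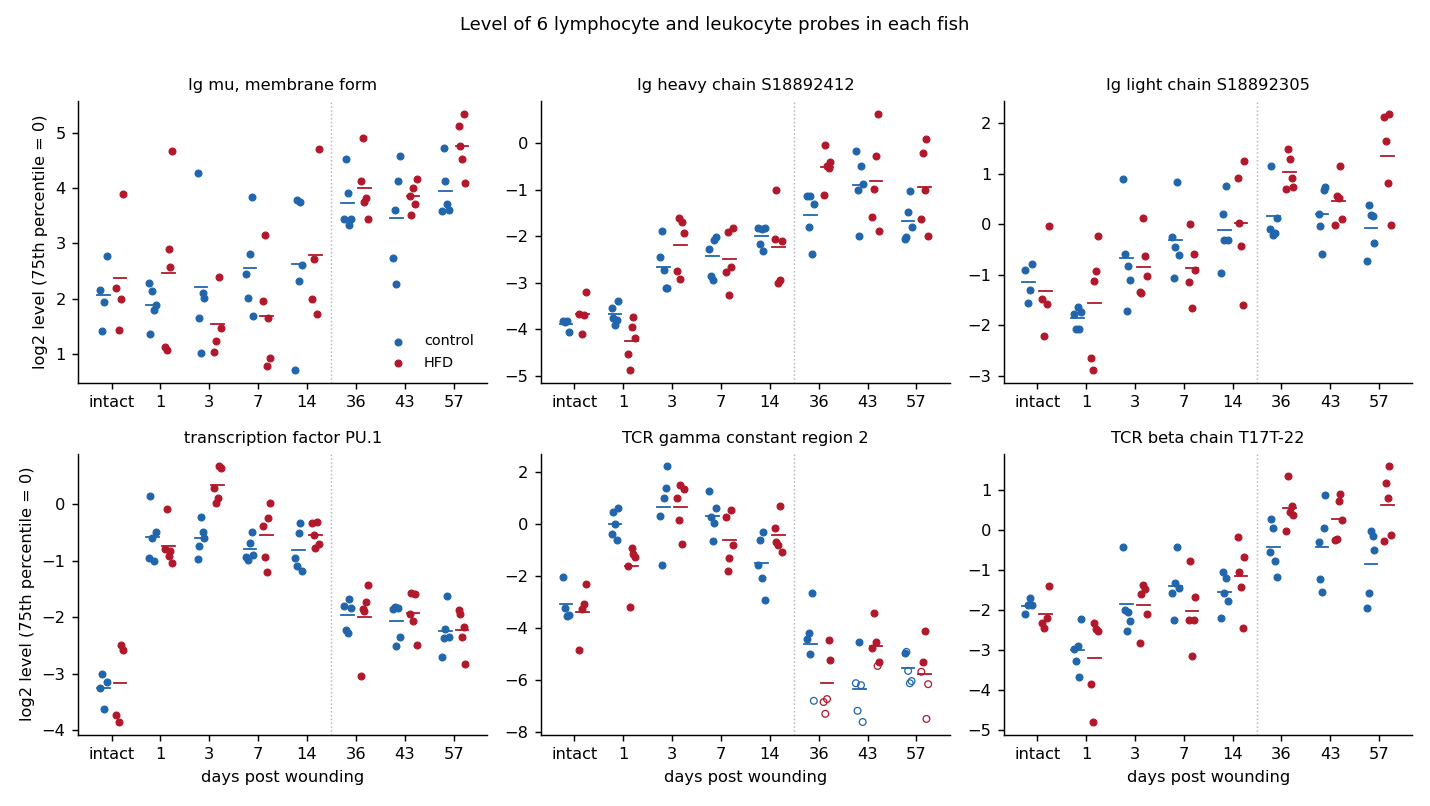
Level of 6 probes in each fish by day (log2 relative to the array's 75th percentile), HFD in red and control in blue. Bars are group means, hollow points are not well above background and the dotted line separates the scan campaigns; Ig probes are high at 36 to 57 dpw, while PU.1 and TCR gamma are high at 1 to 14 dpw.

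The light chains, which pair with heavy chains and are named here for the kappa and lambda chains of mammals they resemble, rose together in the late wound. Of the 12 probes 0, 2, 2, 6, 12, 10 and 12 rose at the 7 wound days in order. Their median change was −0.14 on day 1, 0.97 on day 14, 1.91 on day 36 and 2.09 on day 57. At 36 dpw the 12 changes ran from 1.32 to 2.80. At 36 dpw 5 of the 12 had every wounded fish above every intact fish, and at 57 dpw 1 had. The share of all probes so separated from intact skin was not computed, here or for the single probes named. Nothing is therefore read from these counts. A kappa chain V-IV probe (Ssa#S50370762) lay at −4.77 to −2.79 in intact skin with a median of −3.89 and at −2.66 to 0.19 at 36 dpw with a median of −0.93. Its groups did not overlap, and its rise of 2.80 ± 0.29 (limma adjusted p = 6e-07) was the largest of the 40 at 36 dpw. It was already called at 3 dpw (0.83 ± 0.31, adjusted p = 0.026), a call that ended on leaving out any 1 of 7 fish (0.69 to 1.02), and stood at 1.51 ± 0.30 at 14 dpw (adjusted p = 0.00042).

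The probe named Ig light chain (Ssa#S18892305) had levels of −2.21 to −0.03 in intact skin, with a median of −1.40, of −0.21 to 1.49 at 36 dpw, with a median of 0.72, and of −0.73 to 2.18 at 57 dpw, with a median of 0.28. The late ranges reached into the upper intact range. It rose by 1.19 ± 0.37 at 14 dpw (limma adjusted p = 0.011), 1.83 ± 0.26 at 36 dpw (adjusted p = 2e-05) and 1.87 ± 0.32 at 57 dpw (adjusted p = 0.00015). The 14 dpw call was lost in HFD fish alone and with slide as a fixed block or fish number as a block. Another kappa V-IV probe (Ssa#GRASP209731639) had the largest rise at 57 dpw, 2.63 ± 0.40 (adjusted p = 4.8e-05). The 1 light chain that fell at any day was Ig lambda-like polypeptide 1 (Ssa#S47730025), named for a part of the pre-B cell receptor of mammals, by 1.16 ± 0.30 at 1 dpw (adjusted p = 0.0035). A rise of 1.30 ± 0.32 from 1 to 3 dpw (adjusted p = 0.003) followed, and at 36 dpw its level was 2.07 ± 0.21 above intact skin (adjusted p = 5.1e-07). The fall at 1 dpw was not called in HFD fish alone, nor with normexp, nor with slide or fish number as a block.

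The 3 probes named high-affinity Ig gamma Fc receptor I, after the mammalian receptor for IgG, an antibody class that fish lack, rose at every wound day. The probe Ssa#KSS2992 lay between −1.12 and 0.48 in intact skin with a median of 0.34, between 1.05 and 2.83 at 1 dpw with a median of 2.06, and between 1.46 and 2.88 at 36 dpw with a median of 2.27. At 43 dpw, its lowest late day, it lay between 0.97 and 2.17 with a median of 1.50. Every wounded fish was above every intact fish at all 7 days. The change was 1.73 ± 0.21 at 1 dpw (limma adjusted p = 3.5e-06), 2.11 ± 0.22 at 36 dpw (adjusted p = 5.8e-07) and 1.58 ± 0.21 at 57 dpw (adjusted p = 1.4e-05). The medians of the 3 probes were 1.73, 1.80, 1.77, 1.76, 2.10, 1.47 and 1.58 over the 7 days. None of the 3 was called between neighbouring early days or between 36 and 57 dpw. The summed phagocyte markers had medians of 1.09 before wounding, 19.8, 25.8 and 14.4 at 1, 3 and 7 dpw and 2.65 at 36 dpw. Of the 4 markers 3 were still called above intact skin at each of 36, 43 and 57 dpw, and 1 fell at 43 dpw. These sums are linear and the probe changes are log2, so their sizes cannot be set side by side. The part of phagocytes in the Fc receptor values was not tested.

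MHC class II, which presents peptides to helper T cells, was low in the early wound and at or above the intact level later. Of the 4 probes 2 fell at 1 dpw, 4 at 3 dpw, 4 at 7 dpw and none at 14 dpw, and 2 rose at each of 36, 43 and 57 dpw. The probe named MHC class II (Ssa#S18892497) lay between 5.19 and 6.01 in intact skin with a median of 5.72, between 3.87 and 5.05 at 3 dpw with a median of 4.63 and between 5.74 and 6.27 at 57 dpw with a median of 5.94. At 3 dpw every wounded fish was below every intact fish. It fell by 1.16 ± 0.16 at 3 dpw (limma adjusted p = 9.1e-06) and 1.27 ± 0.17 at 7 dpw (adjusted p = 5.6e-06), and at 36 dpw the change was −0.02. The 7 dpw fall was −0.65 with quantile normalization, −0.64 with normexp and −0.63 with the table the authors scaled, which are not beyond 0.8, and it was not called in control fish alone. The 3 dpw fall was likewise not called under those 3 settings (down to −0.69). The 2 falls at 1 dpw were just beyond the fold required. That of Ssa#S18892497 was −0.83 and ended on leaving out any 1 of 5 fish and under the same 3 settings. It was also lost with slide as a fixed block and all 16 groups in one fit. That of Ssa#GI223647113 was −0.80 and ended on leaving out any 1 of 8 fish and with the values the authors scaled.

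The class II DP alpha chain probe Ssa#GI223646919 had levels of 3.36 to 4.60 in intact skin with a median of 3.94, of 2.20 to 4.05 at 7 dpw with a median of 3.02 and of 4.55 to 5.97 at 57 dpw with a median of 5.49. The lowest fish of 57 dpw was just under the highest intact fish. It fell by 0.91 ± 0.23 at 3 dpw (limma adjusted p = 0.0022) and rose by 1.45 ± 0.20 at 57 dpw (adjusted p = 2.2e-05). The class II alpha probe Ssa#S18892324 gave −0.87 ± 0.24 at 3 dpw (adjusted p = 0.0044) and 1.39 ± 0.22 at 57 dpw (adjusted p = 7.8e-05). The other DP alpha probe, Ssa#GI223647113, fell by 0.96 ± 0.19 at 7 dpw (adjusted p = 0.0003) and stood at 0.72 ± 0.19 at 57 dpw, under the fold required. In control fish alone the falls of the 3 alpha chain probes at 3 and 7 dpw were not called, nor with the values the authors scaled. Those of Ssa#GI223646919 and Ssa#S18892324 were also not called with quantile normalization or with normexp. Without control fish 5 of intact skin the 3 dpw changes were −0.78 for Ssa#GI223646919, −0.78 for Ssa#GI223647113 and −0.73 for Ssa#S18892324, and the 7 dpw changes −0.76 for Ssa#GI223646919 and −0.68 for Ssa#S18892324, all under the fold required.

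MHC class I presents peptides from inside the cell, and its probes did not move as a group. Beta-2 microglobulin (Ssa#CL57Contig1), the light chain of the class I molecule, lay between 3.09 and 4.08 in intact skin with a median of 3.27 and between 2.40 and 4.39 at 14 dpw with a median of 3.86. At 36 dpw it lay between 0.99 and 2.73 with a median of 2.03 and at 57 dpw between 1.72 and 2.46 with a median of 2.19. No fish of 36 or 57 dpw reached the lowest intact fish. It fell by 1.55 ± 0.21 at 36 dpw (limma adjusted p = 1.1e-05), 1.34 ± 0.19 at 43 dpw (adjusted p = 3.3e-05) and 1.33 ± 0.15 at 57 dpw (adjusted p = 2.3e-06). In the table scaled by the authors the 36 dpw change was −0.61 and none of the 3 falls was called. The class I alpha chain BL3-7 (Ssa#TC93758) was well above background in 75 of 78 fish. It rose by 1.89 ± 0.74 at 43 dpw (limma adjusted p = 0.042), a call lost when any 1 of 10 fish was left out (1.25 to 2.36). The call was also lost under 5 settings, among them each density alone and slide as a random block, and was not tested under 2.

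The other class I heavy chain probes differed between fish rather than between days. Ssa#DW006091 was well above background in 34 of 78 fish. In 9 fish it lay between 0.48 and 2.61, and in all others at −3.90 or lower, with a gap of 4.38 between them. They included control fish 7 of intact skin at 1.43, control fish 2 and 4 of 3 dpw at 0.50 and 0.48, control fish 1 and 3 of 7 dpw at 1.30 and 1.44. The others were control fish 5 of 14 dpw at 1.89, control fish 3 of 36 dpw at 1.70, control fish 3 of 43 dpw at 1.99 and HFD fish 4 of 43 dpw at 2.61. The 9 were thus found at 6 of the 8 times, and 8 of the 9 were control fish. The probe is on the list through its difference between HFD and control on these same arrays. Nothing is therefore read from the split of the 9 fish by density. The class I probe Ssa#S29966060, well above background in 38 of 78 fish, had its largest change among the 6 wound days at which it was tested, −2.03 ± 1.16, at 7 dpw, which was not called (limma adjusted p = 0.14). For Ssa#DW006091, tested at 4 wound days, the largest change was −0.71 ± 1.26 at 36 dpw (adjusted p = 0.65).

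**Figure D3:**
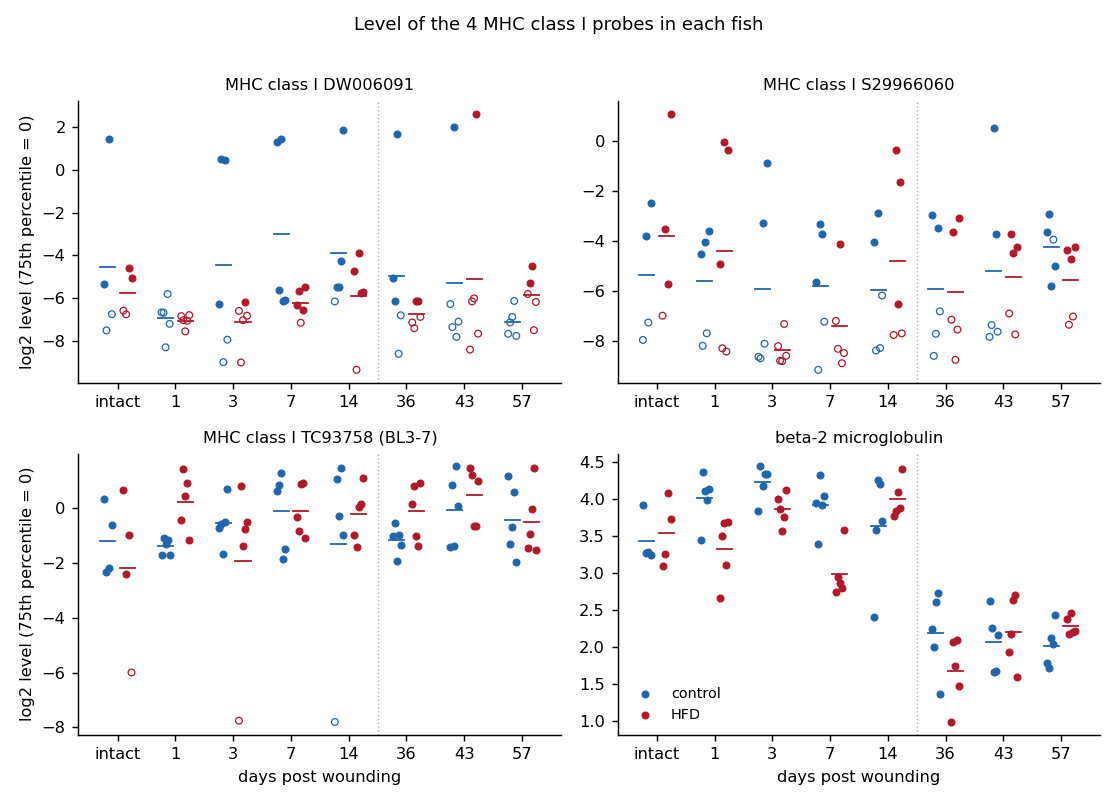
Level of the 4 MHC class I probes in each fish by day (log2 relative to the array's 75th percentile), HFD in red and control in blue, hollow where not well above background. Ssa#DW006091 is split into 9 fish above 0 and the rest below −3.90, while beta-2 microglobulin is low in all fish at 36 to 57 dpw.

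The 3 T cell receptor probes, named for chains of the receptor by which T cells recognise antigen, followed courses that differed from each other. The TCR gamma constant region (Ssa#S41489954), a chain of the receptor of gamma delta T cells, lay between −4.84 and −2.07 in intact skin with a median of −3.26 and between −3.19 and 0.59 at 1 dpw with a median of −0.78. It lay between −1.60 and 2.20 at 3 dpw with a median of 0.99 and between −1.82 and 1.26 at 7 dpw with a median of 0.12. At 3 and 7 dpw every wounded fish was above every intact fish. It rose by 2.41 ± 0.36 at 1 dpw (limma adjusted p = 2.6e-05), 3.87 ± 0.48 at 3 dpw (adjusted p = 2.6e-06), 3.06 ± 0.39 at 7 dpw (adjusted p = 4.2e-06) and 2.26 ± 0.40 at 14 dpw (adjusted p = 0.00013). Of the members it had the largest rise at 3 and 7 dpw. From 1 to 3 dpw it rose by 1.46 ± 0.42 (adjusted p = 0.0096). This rise was not called in control fish alone, and over the settings run it ranged from 0.65 to 2.27.

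In the late wounds TCR gamma was close to background: it was well above it in 6, 5 and 3 of 10 fish at 36, 43 and 57 dpw, and in all 8 intact fish. Its median level was −5.11, −5.38 and −5.67 at these days. It passed the filter there through the intact fish. The fitted changes were −2.14 ± 0.52 (limma adjusted p = 0.0021), −2.29 ± 0.43 (adjusted p = 0.00033) and −2.42 ± 0.41 (adjusted p = 0.00013). With normexp, which adds an offset to dim spots, they were −0.46, −0.51 and −0.62, and with the values the authors scaled they were 0.030, −0.025 and 0.044, and were not called.

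The probe named TCR beta (Ssa#GRASP209736251), after a chain of the alpha beta receptor, was low at 1 dpw and high late. From fish to fish it gave r = 0.98 with the Ig lambda-like light chain probe Ssa#S47730025. With Ssa#S18892491 it gave 0.19 and with TCR gamma −0.11. Whether it shares a target with the light chain probe was not tested, so its name is uncertain. TCR beta lay between −2.45 and −1.40 in intact skin with a median of −1.998 and between −4.81 and −2.23 at 1 dpw with a median of −2.93. It lay between −1.17 and 1.35 at 36 dpw with a median of 0.17 and between −1.96 and 1.59 at 57 dpw with a median of −0.14. At 36 dpw every wounded fish was above every intact fish. It fell by 1.11 ± 0.30 at 1 dpw (limma adjusted p = 0.0053), a call that was lost in HFD fish alone, with normexp and with slide or fish number as a block. It rose by 2.05 ± 0.22 at 36 dpw (adjusted p = 8.7e-07) and 1.89 ± 0.30 at 57 dpw (adjusted p = 8e-05). The probe named T-cell antigen receptor (Ssa#S18892491) lay between −0.83 and 0.69 in intact skin with a median of 0.07 and between −1.92 and −0.66 at 1 dpw with a median of −1.19. It fell by 1.23 ± 0.16 at 1 dpw (adjusted p = 9.2e-06), 0.87 ± 0.15 at 3 dpw (adjusted p = 8.4e-05) and 0.92 ± 0.16 at 7 dpw (adjusted p = 8e-05). The falls at 3 and 7 dpw were not called with normexp or with the values the authors scaled, nor at 3 dpw in HFD fish alone or at 7 dpw in control fish alone (down to −0.40 and −0.30). It rose by 0.86 ± 0.24 at 43 dpw (adjusted p = 0.0076) and 0.85 ± 0.17 at 57 dpw (adjusted p = 0.00068). These late calls each ended on leaving out any 1 of 3 fish (down to 0.74 and 0.75).

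The 5 other leukocyte genes rose at once: all 5 at 1 and 3 dpw, 4 at 7 dpw, 3 at 14 dpw and 2 at each late day, when PU.1 and the Src-like adapter stayed above intact skin and MAL fell at 36 and 57 dpw. PU.1 (Ssa#GRASP223647749), a transcription factor needed in the mouse for myeloid and B cell development, lay between −3.85 and −2.49 in intact skin with a median of −3.19 and between −0.96 and 0.68 at 3 dpw with a median of −0.10. At 14 dpw it still lay between −1.18 and −0.32 with a median of −0.62, and at 57 dpw between −2.82 and −1.63 with a median of −2.27. From 1 to 14 dpw every wounded fish was above every intact fish. It rose by 3.09 ± 0.19 at 3 dpw (limma adjusted p = 1.5e-09), 2.54 ± 0.19 at 14 dpw, the largest rise of that day (adjusted p = 3.5e-08), and 0.97 ± 0.21 at 57 dpw (adjusted p = 0.0011). The 57 dpw call was lost with normexp, with fish number as a block and in HFD fish alone. The Src-like adapter (Ssa#GRASP209154663), which dampens antigen receptor signalling in mammals, rose by 3.12 ± 0.17 at 3 dpw (adjusted p = 3.2e-10) and 1.20 ± 0.17 at 57 dpw (adjusted p = 2.2e-05). Both rose in the same days as the phagocyte markers.

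CD276 (Ssa#GRASP209731943), a checkpoint ligand of the B7 family, was high in the first wound days. It lay between −7.51 and −3.34 in intact skin with a median of −4.67, well above background in 6 of 8 fish, and between −1.22 and 0.34 at 1 dpw with a median of −0.18. At 3 dpw it lay between −3.59 and −0.59 with a median of −2.14. At 1 dpw the groups were far apart. CD276 passed the filter only with the wounded fish counted, so the size of its changes depends in part on dim intact spots. The change as fitted was 4.75 ± 0.35 at 1 dpw (limma adjusted p = 9.2e-09), 3.06 ± 0.39 at 3 dpw (adjusted p = 4e-06), and 2.05 ± 0.37 at 7 dpw (adjusted p = 0.00014). Over the settings run the size at 1 dpw ranged from 2.53 with normexp to 5.44 in control fish alone. At 7 dpw it was 0.73 with normexp, under the fold required. CD276 was not tested against intact skin with the values the authors scaled, nor where a probe had to be well above background on every array. The change was 1.39 ± 0.53 at 14 dpw (adjusted p = 0.032), and no call was made later. The 14 dpw call was lost when any 1 of 9 fish was left out (1.12 to 1.64). It fell from 1 to 3 dpw by 1.70 ± 0.25 (adjusted p = 4.6e-05), the largest fall of a member in that interval, and from 3 to 7 dpw by 1.00 ± 0.28 (adjusted p = 0.009). The latter call was lost under 6 settings, among them normexp, slide as a fixed block and each density alone (down to −0.60).

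CD53, a tetraspanin of leukocytes, and MAL, a membrane proteolipid of T cells that also sorts proteins to the apical surface of epithelia, peaked at 3 dpw. MAL (Ssa#S35581943) lay between 1.24 and 3.39 in intact skin with a median of 2.19, between 4.44 and 5.59 at 3 dpw with a median of 5.18 and between −0.24 and 1.95 at 36 dpw with a median of 0.93. All fish of 3 dpw were above all intact fish. It rose by 2.75 ± 0.25 at 3 dpw (limma adjusted p = 1.2e-07), fell from 3 to 7 dpw by 1.18 ± 0.19 (adjusted p = 0.00014), the largest fall in that interval. It was 1.42 ± 0.34 lower than in intact skin at 36 dpw (adjusted p = 0.002), which was not called with the authors' scaled table. CD53 (Ssa#S35555003) rose by 1.57 ± 0.20 at 3 dpw (adjusted p = 3.9e-06) and fell by 1.02 ± 0.17 from 3 to 7 dpw (adjusted p = 0.00017). The summed epidermal markers were also highest at 3 and 7 dpw, though not every marker rose, and their part in these values was not tested.

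Of the 4 genes of other functions, TOPK and UBE2T fell at 1 dpw and rose from 3 to 7 dpw. The mitotic kinase TOPK (Ssa#GRASP209737745) fell by 1.20 ± 0.20 at 1 dpw (limma adjusted p = 7.5e-05), rose by 1.88 ± 0.23 from 3 to 7 dpw (adjusted p = 6.9e-06), the largest rise of that interval, and stood 0.98 ± 0.12 above intact skin at 14 dpw (adjusted p = 5.7e-06). UBE2T (Ssa#GRASP221221423), a ubiquitin-conjugating enzyme of DNA crosslink repair, fell by 1.06 ± 0.21 at 1 dpw (adjusted p = 0.00036) and rose by 1.33 ± 0.16 at 7 dpw (adjusted p = 1.7e-06). At 14 dpw no wounded fish overlapped the intact fish in either gene. IGSF22 (Ssa#S35485236), listed through its immunoglobulin domain name, lay between 2.22 and 3.89 in intact skin with a median of 2.83 and between −1.75 and 0.63 at 3 dpw with a median of −0.23. These groups did not overlap, and the change of −3.34 ± 0.32 (adjusted p = 1.9e-07) was the largest fall of the 40. Its falls were also the largest at 1 dpw (−2.31 ± 0.35, adjusted p = 3.9e-05), 7 dpw (−2.57 ± 0.27) and 14 dpw (−1.63 ± 0.44, adjusted p = 0.0045). The 14 dpw call was lost with fish number as a block (−1.12), with slide as a fixed block (−1.18) and in HFD fish alone (−1.95, adjusted p = 0.056). The summed muscle markers had lower medians than in intact skin from 1 to 14 dpw, though not every marker fell, and their part was not tested. The NFX1-type zinc finger gene (Ssa#S35505196) rose by 0.98 ± 0.28 at 1 dpw (adjusted p = 0.0061). This call was lost in HFD fish alone and with slide as a fixed block or fish number as a block.

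In the 4 intervals between wound days that were compared, calls became fewer from the first interval to the last, among the members as among all tested probes. Of all probes 14.8% were called from 1 to 3 dpw and 1.48% from 36 to 57 dpw. The step from 14 to 36 dpw, which also crosses the scan campaigns, was not compared. Against intact skin the median change of the members was 0.81 at 14 dpw and 1.28 at 36 dpw. From 1 to 3 dpw 9 of 38 rose, where 5.98% of all probes rose, and 3 fell, where 8.86% fell; among the 9 were 4 light chains, 1 heavy chain and 2 T cell receptor probes. In HFD fish alone 6 rose and 1 fell, in control fish alone 5 rose and 2 fell, and with normexp 2 rose and 3 fell. From 3 to 7 dpw, where 8.98% of all probes were called, 2 of 39 rose against 5.56% and 3 fell against 3.42%, the risers being TOPK and UBE2T. From 7 to 14 dpw none of 39 rose, where 1.87% of all probes rose, and 1 fell, where 1.36% fell: MAL, by 0.80 ± 0.21 (limma adjusted p = 0.015). This call was lost when any 1 of 10 of the 20 fish was left out and under several settings. T-cell antigen receptor Ssa#S18892491 changed by 0.80 ± 0.14 over that interval (adjusted p = 0.001), just under the fold required. At an unadjusted p under 0.05 and no fold, limma gave 8 members higher and 4 lower. From 36 to 57 dpw none of 38 members was called by limma, where 1.48% of all probes were (0.328% higher, 1.15% lower). At an unadjusted p under 0.05 in limma without a fold 7 members were higher and 3 lower. For both intervals the shares of all probes at the unadjusted criterion were not recorded. Nothing is therefore read from the unadjusted counts.

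Whether members varied together from fish to fish was examined with the deviation of each fish from its group mean, over 7 pairs, with permutation tests within groups (100000 resamples, two-sided). Ig mu and the Ig light chain Ssa#S18892305 varied together, with Pearson r = 0.85 and Spearman rho = 0.77 over 76 fish (permutation p = 1e-05, the smallest these resamples can give, adjusted over the 7 pairs 3.5e-05). Within the campaigns r was 0.91 for 0 to 14 dpw and 0.68 for 36 to 57 dpw, and 0.86 without the 2 fish farthest from the median. The median r of Ig mu with 12545 probes was −0.01. Ig mu and TCR beta gave r = 0.67 and rho = 0.62 (adjusted permutation p = 3.5e-05), with 0.77 in the early and 0.52 in the late campaign and 0.69 without the 2 farthest fish. Fish above their group mean for Ig mu tended to be above it for TCR beta as well. The TCR beta probe also gave r = 0.98 with the Ig lambda-like light chain probe. Whether it measures a T cell receptor chain was not tested, so the pair cannot be read as B cells with T cells.

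**Figure D4:**
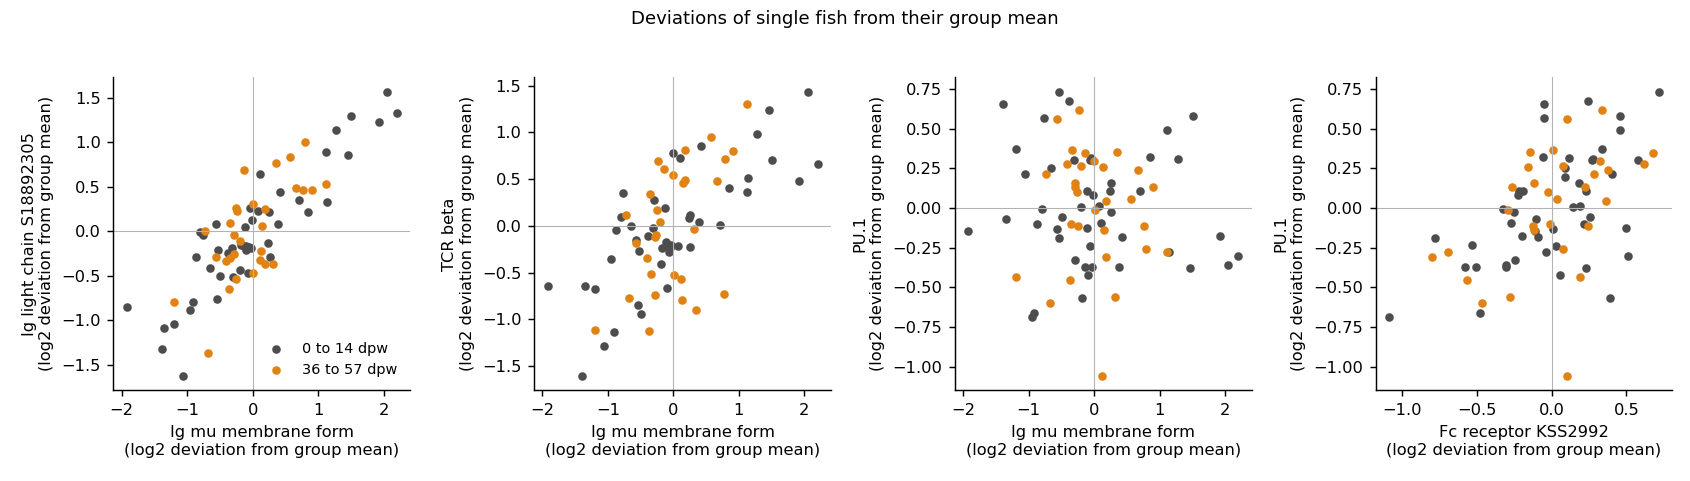
Deviation of each fish from its group mean (log2) for 4 pairs of probes, grey for 0 to 14 dpw and orange for 36 to 57 dpw. Points line up for Ig mu with Ig light chain (r = 0.85) and with TCR beta (r = 0.67), and for Fc receptor with PU.1 (r = 0.51), and not for Ig mu with PU.1 (r = −0.08).

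PU.1 did not vary with Ig mu beyond the test, with r = −0.08 and rho = −0.09 (adjusted permutation p = 0.52), and r of −0.09 and −0.07 in the early and late campaigns. It varied with the Fc receptor Ssa#KSS2992, with r = 0.51 and rho = 0.51 (adjusted permutation p = 4.7e-05), 0.54 and 0.47 within the campaigns and 0.45 without the 2 farthest fish. MHC class II Ssa#S18892497 and the class II alpha probe Ssa#S18892324 gave r = 0.47 and rho = 0.44 (adjusted permutation p = 0.00044), 0.47 and 0.48 within the campaigns and 0.45 without the 2 farthest fish. Ig mu and MHC class II gave r = 0.26 and rho = 0.23 (adjusted permutation p = 0.073), 0.25 and 0.29 within the campaigns and 0.27 without the 2 farthest fish. TCR beta and TCR gamma gave r = −0.11 and rho = −0.10 (adjusted permutation p = 0.48), with 0.05 in the early and −0.31 in the late campaign and −0.15 without the 2 farthest fish, and the test was not passed. The values of a fish share array and slide.

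The 5 probes of the array that followed Ig mu most closely from fish to fish were all members and all Ig chains, as a description over 76 fish: the heavy chain Ssa#S30263508 (r = 0.95), and the light chains Ssa#DW471462 (0.94), Ssa#S47728269 (0.89), Ssa#S35522159 (0.87) and Ssa#S18892305 (0.85). The heavy chain Ssa#S18892412, which rose earliest, gave 0.18 with Ig mu and 0.59 with TCR beta. Among the 66 pairs of light chains r ran from 0.13 to 0.91 with a median of 0.64. The 3 Fc receptor probes gave 0.95 to 0.96 with each other, and CD53 and MAL gave 0.92. The value for CD53 and MAL includes control fish 1 of 43 dpw, at −3.00 and −4.64. The next lowest levels were 0.38 and −0.24, and r without that fish was not computed.

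The differences between HFD and control are those that chose the list, so they are given as a description and without a test, and nothing was read from the shares of all probes set beside them. Every one of the 40 differed by more than 0.8 at some day, from 0.84 for Ssa#S47728269, 0.86 for Ig mu and 0.88 for Ssa#S18892324 up to 3.23 for Ssa#DW006091 and 3.72 for Ssa#DW472642. Members higher and lower in HFD beyond 0.8 were 3 and 2 of 40 in intact skin (3.56% and 0.895% of all probes, 4.45% in all), 4 and 2 of 39 at 1 dpw (1.11% and 4.81%, 5.92% in all). At the next days they were 7 and 3 of 38 at 3 dpw (4.79% and 4.32%, 9.11% in all) and 2 and 14 of 39 at 7 dpw (2.72% and 3.99%, 6.7% in all). At 14 dpw they were 8 and 2 of 40 (3.96% and 4.1%, 8.06% in all) and at 36 dpw 10 and 3 of 39 (1.95% and 1.25%). At 43 dpw they were 6 and 2 of 39 (8.18% and 1.6%) and at 57 dpw 14 and 1 of 38 (4.66% and 0.901%). With slide as a block, an estimate that at 1 to 14 dpw rests on the 2 fish of the shared slide, the members higher and lower became 8 and 17 at 1 dpw, with the median going from 0.22 to −0.67. At 7 dpw they became 4 and 7, with the median going from −0.58 to −0.06. At 3 dpw they were 7 and 12, at 14 dpw 22 and 3 and at 57 dpw 15 and 1. The block moved all probes as well: at 1 dpw 746 of 12606 were beyond 0.8 without it and 2200 with it. With the block 1012 of all probes were higher and 1188 lower at 1 dpw, and 1031 and 732 of 13065 at 7 dpw. They were 906 and 1102 of 12838 at 3 dpw, 1141 and 1653 of 12831 at 14 dpw and 264 and 234 of 11878 at 57 dpw. At any size 26 of 39 members were lower in HFD at 7 dpw, and 29 of 38 were higher at 57 dpw. The share of all probes at any size was not recorded, and their median difference was 0.03 at 7 dpw and 0.04 at 57 dpw.

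**Figure D5:**
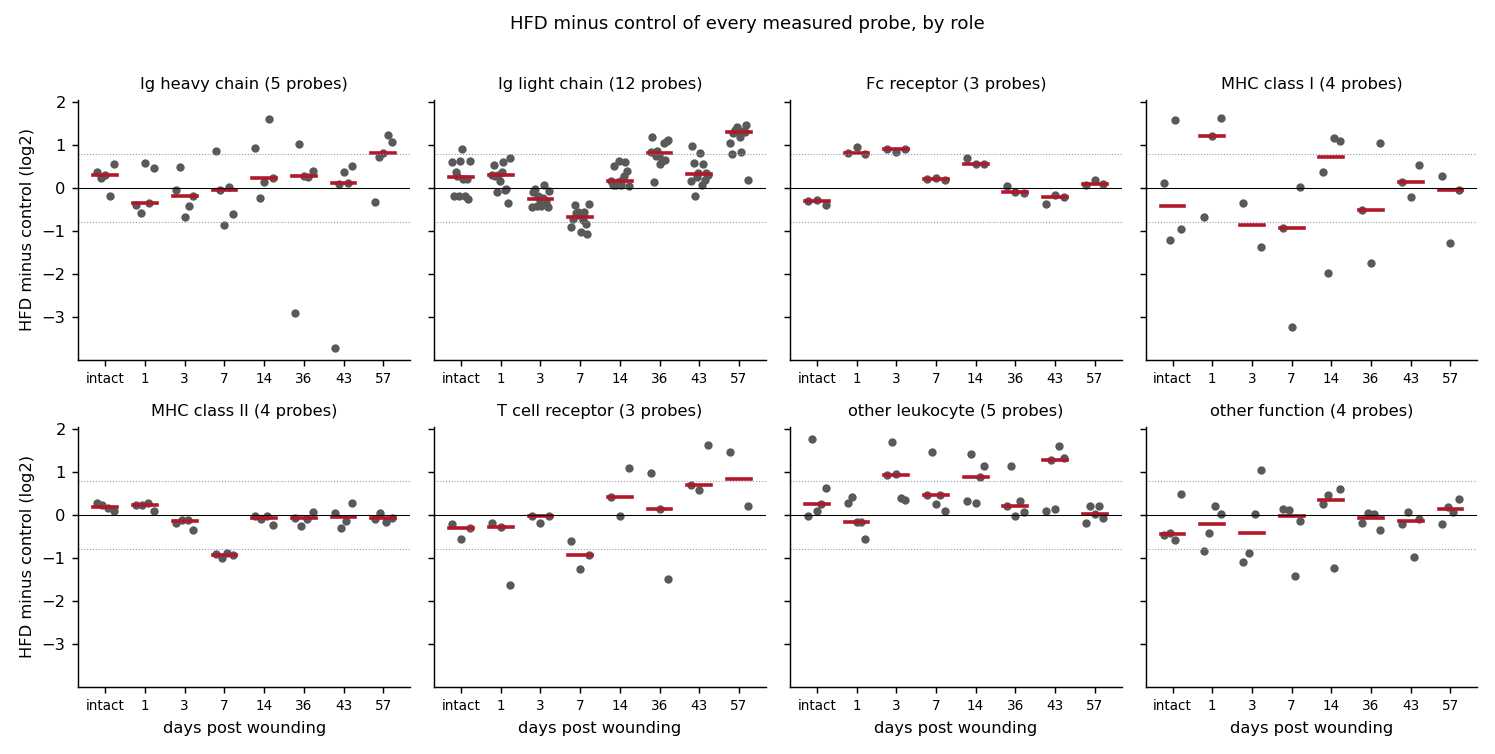
HFD minus control (log2) of each member by role and day, with a red bar for the role's median and dotted lines at −0.8 and 0.8. The light chains lie below 0 at 7 dpw and above it at 14, 36 and 57 dpw, and MHC class II lies near −0.9 at 7 dpw.

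Light chains were lower in HFD for 11 of 12 probes at 3 dpw and 12 of 12 at 7 dpw (median difference −0.68), and higher for 12 of 12 at 14, 36 and 57 dpw (medians 0.17, 0.80 and 1.30). With slide as a block 8 of 12 were lower at 7 dpw (median −0.19), and 10, 11 and 12 were higher at 14, 36 and 57 dpw (medians 1.24, 0.48 and 1.30). At 57 dpw the light chain Ssa#S18892305 had levels of 2.12, 1.65, 0.81, 2.18 and −0.02 in HFD and −0.73, 0.38, 0.17, 0.15 and −0.38 in control, a difference of 1.43 ± 0.42 (SE). The kappa probe Ssa#S50370762 had −1.45, −0.06, −0.76, 1.16 and −2.04 in HFD and −2.55, −2.09, −1.99, −1.72 and −2.18 in control, a difference of 1.48 ± 0.51. In both probes 4 of the 5 HFD fish were above all control fish and the lowest was among them. Ig mu had 5.12, 4.77, 4.52, 5.34 and 4.09 in HFD and 3.58, 4.72, 4.13, 3.72 and 3.60 in control, a difference of 0.82 ± 0.29. TCR beta had −0.27, 1.18, 0.80, 1.59 and −0.14 against −1.96, −1.58, −0.03, −0.15 and −0.50, a difference of 1.48 ± 0.48. Since these probes vary together from fish to fish, their differences share the same fish.

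The heavy chain Ssa#S18892412 at 36 dpw had −1.11, −0.02, −0.49, −0.52 and −0.41 in HFD and −1.13, −1.79, −1.13, −2.38 and −1.31 in control, a difference of 1.04 ± 0.28. This was the only member whose groups did not overlap at 36 dpw, where 0.525% of all probes did not overlap; in intact skin and at 14, 43 and 57 dpw no member was of that kind, against 3.82%, 2.94%, 1.35% and 0.583% of all probes. The heavy chain Ssa#DW472642 had differences of −2.92 ± 1.16 at 36 dpw and −3.72 ± 1.17 at 43 dpw, the largest negative ones of those days. At 43 dpw HFD fish had −2.48, −8.32, −3.92, −7.73 and −7.66 and control fish −3.93, −2.16, −2.86, −0.34 and −2.19, and 3 of the 5 HFD values were not well above background. Without HFD fish 5 the 36 dpw difference was −1.88.

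At 3 dpw the Fc receptor probes, PU.1, the Src-like adapter and CD276 had higher levels in HFD. In this comparison PU.1 had 0.29, 0.02, 0.12, 0.68 and 0.65 in HFD and −0.96, −0.73, −0.23, −0.49 and −0.59 in control, a difference of 0.95 ± 0.18. The Src-like adapter differed by 0.93 ± 0.16 and the Fc receptor Ssa#S50700634 by 0.91 ± 0.22. In these and the Fc receptor Ssa#GRASP223647811 the groups did not overlap, 4 members where 5.67% of all probes did not overlap. The phagocyte markers summed to a median of 64.3 in HFD and 16.1 in control at that day, and their part was not tested.

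At 7 dpw all 4 MHC class II probes were lower in HFD, by 0.88 to 0.99. With slide as a block, which at this day rests on the 2 fish of the shared slide, they were lower by 0.71 to 1.24. The same block gave 0.28 to 1.01 at 1 dpw, against 0.10 to 0.28 without it. At 3 dpw it gave −0.99 to −0.83, against −0.35 to −0.11 without it. At 7 dpw Ssa#S18892497 had 4.10, 3.78, 4.26, 3.71 and 3.93 in HFD and 5.35, 4.52, 5.45, 4.26 and 4.90 in control. These groups met at 4.26 without crossing, with a difference of −0.94 ± 0.23. T-cell antigen receptor Ssa#S18892491 had −1.35, −1.26, −1.89, −1.78 and −1.31 in HFD and 0.08, −0.80, −0.04, −0.36 and −0.22 in control, a difference of −1.25 ± 0.19, with no overlap. CD276 was higher in HFD at that day, with −1.41, −2.03, −2.77, −3.03 and −2.07 against −3.32, −3.63, −4.39, −3.20 and −4.15, a difference of 1.48 ± 0.34. It was higher by 1.70 ± 0.41 at 3 dpw and by 1.78 ± 0.64 in intact skin, where it was well above background in 2 of 4 control fish. Non-overlapping groups were found for 4 members at 7 dpw, against 4.39% of all probes. TCR gamma at 1 dpw was lower in HFD, with −1.63, −3.19, −0.94, −1.15 and −1.27 against −0.41, 0.45, −0.02, −0.62 and 0.59, a difference of −1.63 ± 0.42 with no overlap, and at 3 dpw the difference was −0.02 ± 0.68. At 1 dpw 2 members had groups that did not overlap, against 2.01% of all probes.

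Some differences rested on 1 fish. In control fish 1 of 43 dpw CD53 was at −3.00 and MAL at −4.64. Without that fish the 43 dpw differences went from 1.60 to 0.61 for CD53, from 1.34 to 0.08 for MAL and from 1.27 to 0.59 for CD276. The same day held the lowest summed level of epidermal markers, 3.17. For the class I probes the difference of Ssa#DW006091 went from −1.21 to 0.78 in intact skin without control fish 7, from −3.23 to −2.11 at 7 dpw without control fish 3, from −1.98 to −0.53 at 14 dpw without control fish 5 and from −1.76 to −0.09 at 36 dpw without control fish 3. That of Ssa#TC93758 went from −1.37 to 0.09 at 3 dpw without HFD fish 1, and that of Ssa#S29966060 from 1.59 to −0.03 in intact skin without HFD fish 4. For Ssa#TC93758 the difference also went from −0.96 to 0.31 in intact skin without HFD fish 4. At 14 dpw it went from 1.09 to −0.54 without control fish 1. Among the light chains Ssa#S35522159 went from −1.03 to −0.61 and Ssa#DW471462 from −0.90 to −0.59 at 7 dpw without control fish 4. The BL3-7 probe Ssa#TC93758 was higher in HFD by 1.63 ± 0.43 at 1 dpw. The heavy chain Ssa#S29049395 differed by 1.61 ± 0.76 at 14 dpw and by 1.01 without control fish 1, and TCR gamma by 1.64 ± 0.58 at 43 dpw, where it was well above background in 4 of 5 HFD and 1 of 5 control fish. The kappa probe Ssa#GRASP209731639 had the largest positive difference at 36 dpw, 1.19 ± 0.39, and the class I probe Ssa#S29966060 the largest negative one at 57 dpw, −1.29 ± 0.75, which was −0.84 without HFD fish 2.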

How the data were processed

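RNA of 78 fish in 16 groups was labelled with Cy3 and hybridised to a custom 15k salmon array; 79 scans were used, and the 2 arrays of control fish 3 at 57 dpw were averaged. Spot intensities from Agilent Feature Extraction were deposited by the authors array by array, background-subtracted but without normalization between arrays. They also deposited processed intensities scaled to one total per array, which served as an alternative. Methods and labels name different RNA kits. Here log2 intensities were computed, the 75th percentile of each array over 14841 probes was subtracted, and outlier spots (0 to 45 an array) were dropped; saturation was not seen in any spot. Testing required a probe to be well above background in as many arrays as the smaller of the days had. Days were compared with limma 3.58.1 (R 4.3.3), each fit holding the groups compared; correlations used NumPy 2.4.6 and SciPy 1.17.1 (Python 3.11.15), figures matplotlib 3.10.9. The fits were tested on simulated data. The number of arrays limits the precision, and the labels do not say that fish came from more than 1 tank per density, so p-values measure the spread between these fish.

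The members and lists were chosen with earlier results of these data known. With full values were named the members with the largest rise and fall in each of 11 comparisons, the largest change in each role, the largest HFD minus control differences at each day, and the genes of the correlation pairs; other genes named, and the pair TCR beta with Ig lambda-like, were picked with their values known. As alternatives served quantile normalization, normexp with an offset of 50 on median signals (means were not in the files), the scaled values, 2 other filters on dim probes, outlier spots kept, all 16 groups in one fit, unadjusted p, no minimum fold, fish number or slide as a block, trended robust limma, each density alone, 1 of the repeated arrays, and each fish left out. Leaving out the dim slide, and each fish for HFD minus control, were added after seeing the data. A pair of Ssa#DW006091 with beta-2 microglobulin had been planned and was not tested, because the fish fell into separate clusters.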

Additional observations from a re-analysis of the deposited data

Results flagged for a closer look

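In 144 groups of 9 named members, 9 groups held a fish set apart from the rest of its group by Dixon's criterion, which chance alone gives in about 1 group in 20. The heavy chain Ssa#S18892412 was at −4.05 in control fish 8 of intact skin, with the others between −3.85 and −3.82. The Ig light chain Ssa#S18892305 was at 1.16 in control fish 2 at 36 dpw, with the others between −0.21 and 0.12. PU.1 was at −0.074 in HFD fish 2 at 1 dpw (others −1.03 to −0.80) and at −3.04 in HFD fish 1 at 36 dpw (others −1.88 to −1.43). CD276 was at −2.37 in HFD fish 3 at 3 dpw, with the others between −1.06 and −0.59. TCR beta was at −0.43 in control fish 1 at 3 dpw, with the others between −2.54 and −2.02. The class I probe Ssa#DW006091 was at 2.61 in HFD fish 4 at 43 dpw (others −8.40 to −6.01), at 1.89 in control fish 5 at 14 dpw (others −6.15 to −4.24) and at 1.99 in control fish 3 at 43 dpw (others −7.81 to −6.28). Of the 280 pairs of a member and a wound day examined, 0 had every HFD fish on one side of its intact mean and every control fish on the other.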

How the results depend on the processing

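Of the 174 calls of single members, none was called in the opposite direction under any setting run. With fish number as a replicate block 138 were kept, with quantile normalization 166, with normexp 135, with the values scaled by the authors 144, in HFD fish alone 138, in control fish alone 139, and with slide as a random block 172. Slide as a fixed block could not be fitted for 36, 43 and 57 dpw against intact skin. Of the 90 calls in the comparisons it could fit, it kept 73, and 85 with all 16 groups in one fit. Without the dim slide 79 of the 84 calls at 36, 43 and 57 dpw were kept. Fish numbers did not pair the fish: the median correlation of deviations within a number lay between −0.06 and 0.03 over 5 numbers, and 6 of 78 fish correlated best with their own number. The replicate block gave 16 members called at 43 dpw against intact skin (26 without it). Intact control fish were numbered 5 to 8 and wounded fish 1 to 5. Against intact skin this block therefore leaves control fish 6, 7 and 8 of intact skin without weight. Calls lost with it there cannot be read as a matter of pairing.

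Against intact skin, normexp gave 12 members called at 3 dpw (19 as reported) and 10 at 7 dpw (18), and at 14 dpw (17) the authors' scaled values gave 29 and slide as a block 11. From 1 to 3 dpw (12) normexp gave 5 and each density alone 7. From 3 to 7 dpw (5) dropping the minimum fold gave 8. From 7 to 14 dpw (1) quantile normalization and HFD fish alone gave 2, the study's criteria 4, no minimum fold 5, and normexp, all 16 groups in one fit and slide as a block, fixed (also with all 16 groups) or random, gave 0. The cause was not tested. Leaving out each fish gave, for the 7 wound days in order, 16 to 21, 16 to 20, 16 to 19, 15 to 23, 29 to 31, 24 to 27 and 27 to 30 members; between wound days it gave 10 to 14, 5 to 6, 0 to 4 and, from 36 to 57 dpw, 0 to 1. Of the calls 21 ended when 1 fish was left out.

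For HFD minus control beyond 0.8, normexp gave 2 members in intact skin (5 as reported) and 9 (16), 6 (10), 7 (13) and 5 (8) on days 7, 14, 36 and 43, the scaled values 2 in intact skin and 5 at 43 dpw, and slide as a block 25 (6), 19 (10), 25 and 6 on days 1, 3, 14 and 36. Of all probes that block put 2200 of 12606, 2008 of 12838, 2794 of 12831 and 758 of 12643 beyond 0.8 on days 1, 3, 14 and 36. Without it they were 746, 1170, 1034 and 404. With that block the median of the members went from 0.22 to −0.67 at 1 dpw and from −0.58 to −0.06 at 7 dpw. Leaving out each fish gave 2 to 8 in intact skin, 4 to 10 at 1 dpw, 8 to 12 at 3 dpw, 12 to 21 at 7 dpw, 7 to 11 at 14 dpw, 10 to 15 at 36 dpw, 5 to 13 at 43 dpw and 13 to 17 at 57 dpw.

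Signs turned for TCR gamma Ssa#S41489954 against intact skin with the scaled values (0.030 at 36 dpw, 0.044 at 57 dpw), for Ssa#DW006091 without control fish 7 of intact skin (0.29 at 36 dpw, where leaving out each fish gave −1.54 to 0.29, and 0.78 for HFD minus control in intact skin, with −2.20 to 0.78), for Ssa#TC93758 HFD minus control at 3 dpw (0.12 with the scaled values, 0.090 without HFD fish 1, and −2.05 to 0.090 over the fish left out) and for Ssa#S29966060 at 57 dpw without the dim slide (0.21). The correlation of TCR beta with TCR gamma was 0.051 within 0 to 14 dpw, and that of Ig mu with MHC class II, 0.27 with quantile normalization, passed the threshold (adjusted permutation p = 0.040).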

Other observations

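From fish to fish TCR beta and Ig lambda-like polypeptide 1 (Ssa#S47730025) gave r = 0.98 over their deviations from group means, a pair chosen after its value was seen; whether these 2 probes share a target was not tested.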
